A study of Mus musculus with 2 samples.

Results

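The genes described here burn fatty acids in mitochondria or set how much is burned: Cpt1a, Cpt2, Acadl, Acadm, Hadha, Pdk4, Ppara and Ppargc1a. They were chosen by name, and all 8 were found among the 31205 gene symbols of the matrix. None of the 8 encodes an enzyme that makes ketone bodies. A wider list of 74 genes of the pathway adds genes of their interconversion, use and transport and a thiolase shared by making and using them. No enzyme that serves only their making is reported here. The data are single-cell RNA counts of crypts of the duodenum, where the stem cells of the gut lining sit, from wild-type mice in a series titled for chronic stress and stem cell aging. The groups were ES and NT, letters that the labels do not spell out, and the labels used here give no strain, age, sex or treatment schedule. Cells of 5 animals were pooled in each group and each group was 1 library, so nothing below has a replicate or a test. Barcodes end in 2 or 1, and no label ties either number to ES or NT: the libraries are called library 2 and library 1, and no direction between ES and NT was drawn.

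Long-chain fatty acids are coupled to coenzyme A, handed to carnitine by CPT1 on the outer mitochondrial membrane and back to coenzyme A by CPT2 on the inner one, and then shortened step by step in beta oxidation to acetyl-CoA. Acetyl-CoA either enters the citric acid cycle or is turned into ketone bodies, which other cells can burn in turn. Fasting and fat-rich diets raise many of these genes through PPAR-alpha, a nuclear receptor that binds fatty acids, and its coactivator PGC-1-alpha, and PDK4 then spares glucose by switching off pyruvate dehydrogenase.

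Promoter sequences are shown for 4 genes that stand for the patterns below: Cpt1a, with no common direction between mature and stem-like cells of the libraries, Acadm and Ppargc1a, higher in absorptive cells, and Pdk4, of the 8 the gene with the widest gap between the libraries over all cells. They are RefSeq windows of 250 bases before to 50 bases after the RefSeq start, on GRCm38.p6, and all 8 genes were matched by symbol. AGGTCA is the core motif that nuclear receptors such as PPAR-alpha read in pairs, and TGACGT is the core of the cAMP response element. Both motifs were searched on both strands and are in capitals in either orientation, and no match of one overlaps a match of the other. The Cpt1a window lies at chr19:3323051-3323350 on the plus strand, the Acadm window at chr3:153944594-153944893, the Pdk4 window at chr6:5496229-5496528 and the Ppargc1a window at chr5:51567676-51567975, all 3 on the minus strand.
Cpt1a: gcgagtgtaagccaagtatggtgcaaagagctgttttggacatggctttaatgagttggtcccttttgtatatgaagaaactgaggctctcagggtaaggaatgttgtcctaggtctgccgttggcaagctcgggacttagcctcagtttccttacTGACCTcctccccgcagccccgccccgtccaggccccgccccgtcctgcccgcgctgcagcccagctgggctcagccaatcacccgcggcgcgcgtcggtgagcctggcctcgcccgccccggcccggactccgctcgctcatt
Acadm: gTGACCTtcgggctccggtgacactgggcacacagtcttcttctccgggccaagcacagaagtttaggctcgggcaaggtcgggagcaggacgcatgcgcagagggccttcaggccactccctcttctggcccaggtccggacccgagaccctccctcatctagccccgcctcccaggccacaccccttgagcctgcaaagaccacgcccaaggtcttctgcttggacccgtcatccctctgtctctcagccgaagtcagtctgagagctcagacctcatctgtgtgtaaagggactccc
Pdk4: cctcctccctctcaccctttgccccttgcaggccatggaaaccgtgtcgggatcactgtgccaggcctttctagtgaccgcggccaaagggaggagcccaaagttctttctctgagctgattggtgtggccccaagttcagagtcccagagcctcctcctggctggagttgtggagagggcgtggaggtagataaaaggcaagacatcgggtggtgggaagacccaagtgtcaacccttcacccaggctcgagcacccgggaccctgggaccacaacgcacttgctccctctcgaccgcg
Ppargc1a: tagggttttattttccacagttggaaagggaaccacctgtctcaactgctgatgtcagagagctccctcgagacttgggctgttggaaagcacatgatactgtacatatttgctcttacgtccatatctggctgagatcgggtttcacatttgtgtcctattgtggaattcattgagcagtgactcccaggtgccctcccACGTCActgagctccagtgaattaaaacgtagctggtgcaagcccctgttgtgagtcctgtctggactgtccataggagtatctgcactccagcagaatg
AGGTCA was found, on the reverse strand of the window, beginning 94 bases before the start of Cpt1a and 249 bases before that of Acadm, and 16.3% of 32851 promoter windows hold it. TGACGT was found on the reverse strand 50 bases before the start of Ppargc1a, and 7.51% of the windows hold it. Neither was found in the windows of the other 5 genes, Pdk4 included, which says only that these letters are not in those windows.

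Library 2 held 6446 barcodes and 54877667 UMIs (molecular tags, 1 for each RNA molecule caught), and library 1 held 6310 barcodes and 54316199 UMIs. A cell was kept if it had 500 genes or more and no more than 25% mitochondrial UMIs, which left 3727 in library 2 and 4057 in library 1, with medians of 11800 and 10854 UMIs, and removed 42.2% and 35.7% of the barcodes. The libraries shared 40 barcodes. Each kept cell was put in the class whose marker genes it held most of, relative to a minimum set per class, and 9 classes had at least 50 cells in each library. The stem-like class held 553 cells in library 2 and 796 in library 1, the cycling progenitor-like class 519 and 780, the early absorptive-like class 770 and 598, and the mature enterocyte-like class 131 and 105. Goblet-like cells numbered 585 and 464, Paneth-like cells 192 and 204, enteroendocrine-like cells 107 and 100, and tuft-like cells 82 and 50. Lymphocyte-marker cells, 233 and 279, were left without such a name, since their medians of 3232 and 2443 UMIs were far below those of the libraries and, together with that, none of their listed markers was among their 10 leading genes. Paneth-like cells, led mostly by alpha-defensin genes outside their list, also had no listed marker there, but their medians were 12518.5 and 13955 UMIs. The genes leading lymphocyte-marker cells were Trgv2, Trgv1, Dock10, Apol7e and Cxcr6, also outside their list. Cd2, a lymphocyte gene not used for the classes, stood in those cells at 32.5 and 13.8 CPM (defined below), against 0 in stem-like cells. Their median marker sums were 390 and 550 UMIs per 10000, against a class minimum of 30. Olfm4, a stem cell gene that was not used for the classes, stood at 9931 and 8247 CPM (the gene's UMIs per 1000000 UMIs of the class) in the stem-like class of library 2 and library 1, against 204 and 173 CPM in early absorptive-like cells. Within 20% of the stem minimum lay 213 cells of library 2 and 341 of library 1, so the class has no sharp edge. Putative doublets were not removed: 7.81% and 6.31% of the kept cells passed the minimum of more than 1 class that do not go together. They were spread unevenly. With them left out, Paneth-like cells came to 119 in library 2 and 133 in library 1, goblet-like cells to 450 and 375, and tuft-like cells to 62 and 37. Stem-like cells came to 547 and 770.

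Cpt1a, on chromosome 19 (mm10, 3322334 to 3385733, plus strand), encodes the liver form of the enzyme that commits fatty acids to the mitochondrion. Its level in library 2 was 192 CPM in stem-like, 276 in cycling progenitor-like, 272 in early absorptive-like and 155 in mature enterocyte-like cells. In library 1 the same stages held 226, 293, 289 and 239.6 CPM. The highest values therefore lay in the 2 middle stages, which did not differ beyond their counting intervals in either library. Mature over stem-like cells, the ratio was 0.804 in library 2 (95% counting interval 0.699 to 0.921) and 1.06 in library 1 (0.934 to 1.20), so the libraries gave no common direction. Here and below, intervals come from the UMI counts alone and cover counting error only, not variation between animals.

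Cpt2, on chromosome 4 (107903981 to 107923610, minus strand), encodes the partner enzyme on the inner membrane. It climbed along the absorptive stages without a break: 59.5, 107, 164 and 222 CPM in stem-like, cycling progenitor-like, early absorptive-like and mature enterocyte-like cells of library 2, and 68.1, 92.0, 162 and 214 CPM in library 1. Every step in both libraries had an interval above 1. Mature over stem-like cells, the ratio was 3.74 (3.23 to 4.32) in library 2 and 3.14 (2.70 to 3.65) in library 1. The 2 transferases of the carnitine shuttle thus ran apart in these cells: at the last step, mature over early absorptive-like cells, Cpt2 had ratios of 1.36 and 1.32 in library 2 and library 1, while Cpt1a had ratios of 0.569 (0.498 to 0.647) and 0.830 (0.731 to 0.940). No all-gene median was taken for this step, here or for the genes below. A shift shared by most genes was therefore not separated from these ratios.

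**Figure D1:**
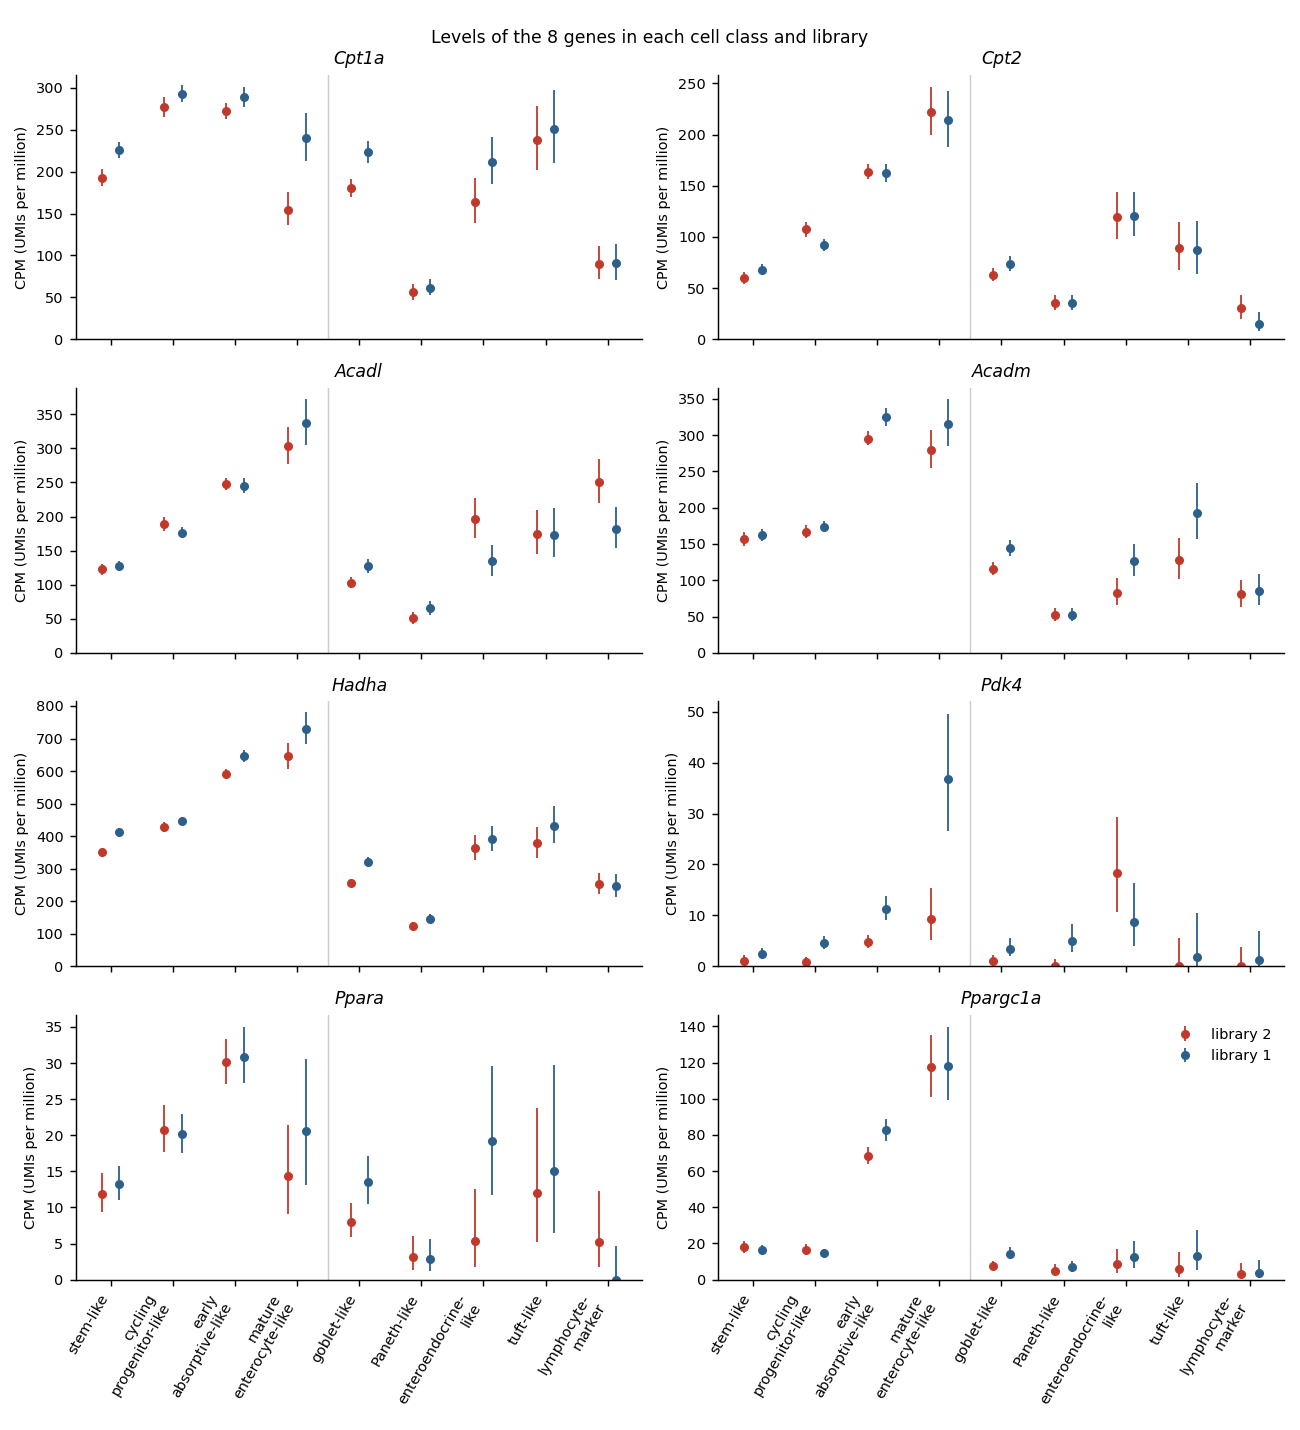
Level of each of the 8 genes in the 9 cell classes, in CPM (y axis), with library 2 left in red and library 1 right in blue. Bars are exact Poisson 95% intervals of the summed counts, and the grey line ends the absorptive stages. Cpt2 climbs at every stage and Ppargc1a from the early absorptive stage on, and Cpt1a and Ppara are highest before the mature stage. For Ppara in library 1 the interval of the last step includes 1. Pdk4 is drawn from few UMIs and has the lower value in library 2 at each absorptive stage.

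Acadl, Acadm and Hadha carry out beta oxidation itself. Acadl (chromosome 1, 66830839 to 66863277, minus strand) encodes the long-chain acyl-CoA dehydrogenase, which takes the first step on longer chains. It stood at 122, 189, 248 and 304 CPM in stem-like, cycling progenitor-like, early absorptive-like and mature enterocyte-like cells of library 2, and at 127, 176, 245 and 337 CPM in library 1. Its ratio of mature to stem-like cells was 2.48 (2.21 to 2.78) in library 2 and 2.66 (2.37 to 2.98) in library 1, a graded climb in which every step had an interval above 1.

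Acadm (chromosome 3, 153922357 to 153944632, minus strand) encodes the medium-chain acyl-CoA dehydrogenase. Its change came at a single step: 157 and 167 CPM in stem-like and cycling progenitor-like cells of library 2, then 295 and 279 CPM in early absorptive-like and mature enterocyte-like cells. Library 1 held 162, 174, 325 and 316 CPM. Early absorptive-like over cycling progenitor-like cells, the ratio was 1.77 (1.66 to 1.89) and 1.87 (1.76 to 1.98) in library 2 and library 1. Between the mature and the early stage the ratio was 0.947 (0.856 to 1.04) and 0.971 (0.869 to 1.08).

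Hadha (chromosome 5, 30118304 to 30155162, minus strand) encodes the alpha subunit of the trifunctional protein, which does the next 2 steps on long chains. It held 350.3, 427, 592 and 646 CPM along the stages of library 2 and 412, 447, 647 and 730.0 CPM along those of library 1. Mature over stem-like cells, the ratios were 1.84 (1.71 to 1.98) and 1.77 (1.64 to 1.91). Hadhb, the beta subunit, is transcribed the other way from a start 85 bases from that of Hadha, and its level pattern was the one most like Hadha's among 9595 genes (Pearson r 0.979 over 18 points, 9 classes in 2 libraries). The gene body of Hadha overlaps Garem2 on the opposite strand, and the sources used here do not say whether counting used strand, so reads of that pair may not have been told apart.

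Pdk4 (chromosome 6, 5483351 to 5496309, minus strand) encodes the kinase that switches off pyruvate dehydrogenase when fat is burned. Very few of its molecules were caught: along the stages, 7, 7, 59 and 15 UMIs in library 2, and 22, 51, 91 and 43 UMIs in library 1. Those counts came to 1.03, 0.908, 4.79 and 9.32 CPM in library 2, and to 2.40, 4.59, 11.2 and 36.8 CPM in library 1. Along the stages both libraries were highest in mature enterocyte-like cells, with ratios to stem-like cells of 9.09 (3.49 to 26.3) and 15.3 (8.96 to 26.9). The gene was under the minimum of 100 UMIs per library that the counts of genes below require, so these values are given as a description. Enteroendocrine-like cells held it at 18.3 and 8.63 CPM in library 2 and library 1, from 17 and 9 UMIs.

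Ppara (chromosome 15, 85734983 to 85802819, plus strand) and Ppargc1a (chromosome 5, 51454250 to 51567726, minus strand) encode PPAR-alpha and PGC-1-alpha. Ppara was highest in the middle: 11.9, 20.7, 30.1 and 14.3 CPM along the stages of library 2, and 13.2, 20.1, 30.9 and 20.5 CPM along those of library 1. Early absorptive-like over stem-like cells, its ratio was 2.54 (1.99 to 3.27) and 2.33 (1.87 to 2.93). At the mature stage the interval of its ratio to stem-like cells included 1 in both libraries, at 1.20 (0.723 to 1.93) and 1.55 (0.958 to 2.42). Mature over early absorptive-like cells, its ratio was 0.474 (0.297 to 0.722) in library 2 and 0.665 (0.418 to 1.01) in library 1. The interval of library 1 includes 1, and the mature values rest on 23 and 24 UMIs.

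While Ppara fell at the last step beyond its counting interval in library 2 only, Ppargc1a climbed there in both libraries. It held 17.9 and 16.6 CPM in stem-like and cycling progenitor-like cells of library 2, and 68.6 and 117 CPM in early absorptive-like and mature enterocyte-like cells. The same stages of library 1 held 16.3, 14.6, 82.5 and 118 CPM. Mature over stem-like cells, the ratio was 6.57 (5.20 to 8.32) in library 2 and 7.25 (5.71 to 9.21) in library 1. Among the genes with at least 500 UMIs, Abcc2 (r 0.974) and Dglucy (0.973) were among those most like Ppargc1a in pattern. These correlations share libraries and depth and describe the 18 points only.

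Of the other genes' closest matches, Cpt1a had Ndufa7 (r 0.975), Ppa2 (0.972) and Fh1 (0.965), and Cpt2 had Sult1d1 (0.973), Abcd3 (0.971) and Anks4b (0.967). Acadm had Aldh9a1 (0.984), Slc25a3 (0.983) and Esrra (0.981), and Acadl had Tmem19 (0.960), Slc30a1 (0.952) and Pank3 (0.950). Ppara had Ndufb8 (0.940), Ndufa9 (0.938) and Uqcr10 (0.938). After Hadhb, Hadha had Pex19 (0.972) and Cldnd1 (0.969). Among the members themselves, the pair most alike was Acadm with Hadha (r 0.944).

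Mature enterocyte-like and stem-like cells, the ends of the absorptive series, were then set side by side over all genes. A gene was counted as apart when its CPM ratio was at least 1.5 the same way in both libraries, with both intervals excluding 1 and at least 100 UMIs in each library. Of the 8 genes, 7 had enough UMIs, and 5 of them were apart and higher in mature enterocyte-like cells: Cpt2, Acadl, Acadm, Hadha and Ppargc1a. None was apart and lower. The count of 5 came to 3 with no cell filter, where Acadm and Hadha were under the ratio of 1.5, and to 3 with cells thinned to 2000 UMIs, where Cpt2 and Ppargc1a had too few UMIs. The filter bore unequally on the 2 ends. Without it, mature enterocyte-like cells numbered 545 in library 2 and 436 in library 1, against 131 and 105 with it. Stem-like cells numbered 933 and 1124 without it, against 553 and 796. Among all 8279 genes measured, 16.0% were apart and higher and 43.6% apart and lower, and the median log2 ratio was -0.58, against 0.90 over the 7 genes. Because the median gene was lower, ratios were also taken relative to that median: Cpt1a then turned to the higher side in both libraries, at 1.20 and 1.59 in library 2 and library 1, and Ppara, at 1.79 and 2.32, was apart and higher, which made the count 6. With no cell filter and on the plain scale Cpt1a lay on the lower side in both libraries, at 0.673 (0.602 to 0.751) and 0.790 (0.709 to 0.878). On the median-centred scale 2268 genes were higher and 2180 lower, against 1325 and 3606 on the plain one.

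**Figure D2:**
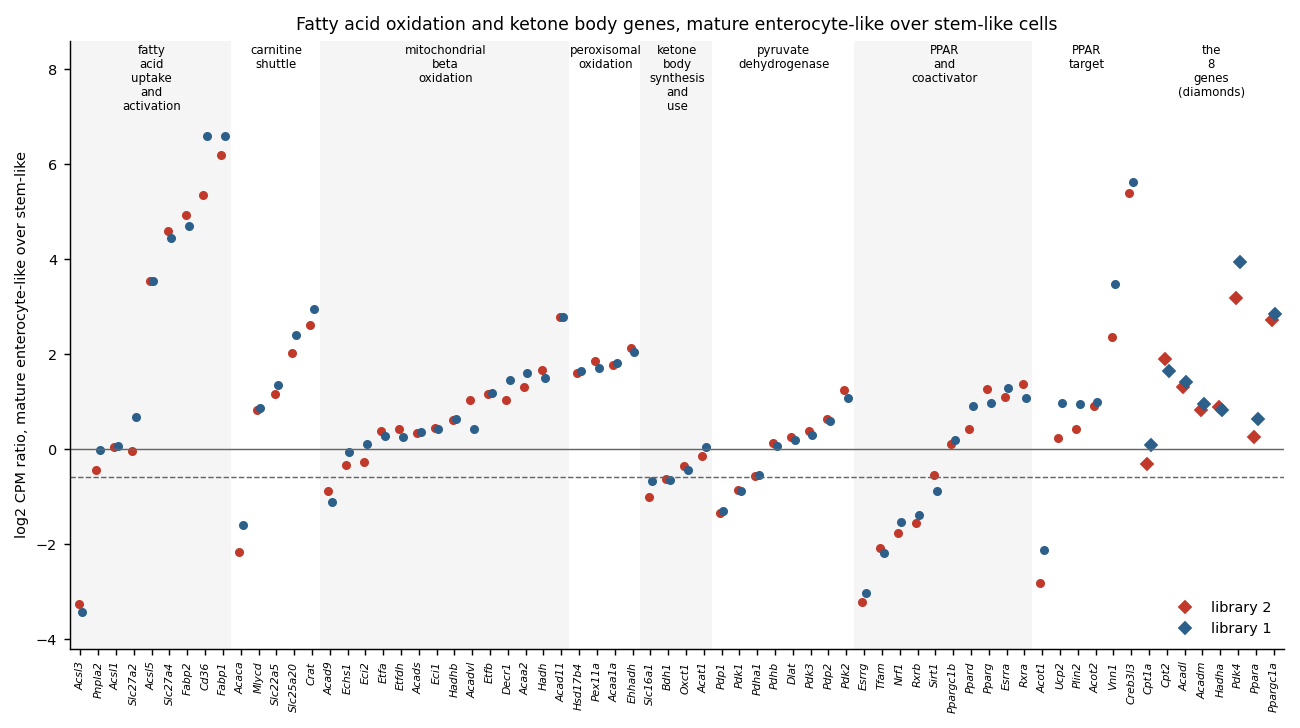
Log2 ratio of level in mature enterocyte-like over stem-like cells (y axis), with library 2 in red and library 1 in blue, for the 8 genes and for genes of the pathway with at least 100 UMIs over both libraries, set out by role. Circles are genes of the wider list, diamonds the 8 genes, and the dashed line is the median of all measured genes, -0.58. The 4 peroxisomal genes lie above 0. None of the 4 ketone body genes drawn was apart and higher, and none of them serves only the making of ketone bodies. Pdk4 is drawn from few UMIs.

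The wider pathway moved with these genes in part. Of its 74 genes 57 were measured, with 26 apart and higher and 11 apart and lower in mature enterocyte-like cells. The median log2 ratio was 0.60 over 65 genes with at least 20 UMIs, against -0.56 over the 10584 genes at that minimum. Several of these genes are known as genes of the mature enterocyte as such, and the classes were set by other genes of that cell type. The counts by role below stand beside the same 16.0% of all genes apart and higher and 43.6% apart and lower, and most roles hold few genes.

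In fatty acid uptake and activation, 5 of 9 measured genes were apart and higher and 1 lower. Fabp1, a cytosolic fatty acid carrier, stood at 5193 and 5538 CPM in mature enterocyte-like cells of library 2 and library 1, against 71.2 and 57.7 CPM in stem-like cells. Lymphocyte-marker cells held it at 70.2 and 42.7 CPM, near the stem-like values. Cd36, a fatty acid transporter of the cell surface, held 83.2 and 157 CPM against 2.05 and 1.64 CPM. Acsl3, an acyl-CoA synthetase tied to lipid droplets, ran the other way, with 6.83 and 6.85 CPM in mature enterocyte-like cells against 65.0 and 73.6 CPM in stem-like cells. Pnpla2, the triglyceride lipase ATGL, had ratios of 0.738 and 0.994 and was not apart.

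In the carnitine shuttle, 4 of 5 measured genes were apart and higher and 1 lower. Slc25a20, which carries acylcarnitine through the inner membrane between CPT1 and CPT2, had ratios of 4.07 and 5.32 in library 2 and library 1. Crat, the acetyltransferase that exports acetyl groups as acetylcarnitine, held 142 and 159 CPM in mature enterocyte-like cells against 23.0 and 20.4 CPM in stem-like cells. Acaca, which makes malonyl-CoA, the inhibitor of CPT1, had ratios of 0.223 and 0.330, and Mlycd, which breaks it down, had ratios of 1.79 and 1.82. Acacb, which also makes it, had 24 UMIs, too few to be counted.

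In mitochondrial beta oxidation 6 of 13 genes were apart and higher and 1 lower, and in peroxisomal oxidation 4 of 4 were higher. Hadh, the dehydrogenase of shorter hydroxyacyl-CoA chains, had ratios of 3.16 and 2.83, and Acad11 ratios of 6.86 and 6.92. Acad9, a dehydrogenase also known as an assembly factor of respiratory complex I, had 0.545 and 0.466, and Echs1, the short-chain hydratase, was not apart at 0.792 and 0.962. Ehhadh, a bifunctional enzyme of peroxisomal oxidation, held 104 and 99.3 CPM in mature enterocyte-like cells, against 23.9 and 24.0 CPM in stem-like cells. Hsd17b4, the other bifunctional enzyme, Pex11a, a membrane protein of the peroxisome, and Acaa1a, its thiolase, had ratios between 3.04 and 3.64 in the 2 libraries. Acaa1a has a near-identical copy, Acaa1b, and its count is uncertain.

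Among the ketone body genes reported here, 2 of 4 measured genes were apart and lower in mature enterocyte-like cells and none higher. With so few genes these shares cannot be set off from the 43.6% and 16.0% of all genes. They cover interconversion, use, transport and a shared thiolase, and do not describe the making of ketone bodies as such. Slc16a1, the transporter MCT1 that carries ketone bodies and lactate, held 70.2 and 82.2 CPM in mature enterocyte-like cells of library 2 and library 1, against 141 and 129.7 CPM in stem-like cells, ratios of 0.496 and 0.633. Bdh1, which interconverts the 2 main ketone bodies, held 176 and 173 CPM against 273 and 272 CPM, a mean log2 ratio of -0.64 that lay close to the all-gene median. Neither Oxct1, which starts the use of ketone bodies, at 0.784 and 0.740, nor Acat1, a thiolase of both making and using them, at 0.907 and 1.04, was apart.

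Around pyruvate dehydrogenase, 2 of 7 measured genes were apart and higher and 1 lower. The sister kinases of Pdk4 split: Pdk2 held 193 and 189 CPM in mature enterocyte-like cells against 81.1 and 89.1 CPM in stem-like cells, and Pdk1, a target of hypoxia signalling, had ratios of 0.549 and 0.545. Pdp2, a phosphatase that opposes these kinases, had ratios of 1.55 and 1.52, and its relative Pdp1, under the count of UMIs required, had 0.394 and 0.407. Among the receptors and coactivators 3 of 10 were apart and higher and 4 lower, beside the 16.0% and 43.6% of all genes. Rxra, a receptor that pairs with PPAR-alpha, had ratios of 2.61 and 2.12, and its relative Rxrb, which can also pair with it, 0.340 and 0.386. Esrra, a receptor that works with PGC-1-alpha, had ratios of 2.16 and 2.46. Esrrg, its relative, had 0.107 and 0.123, and Tfam, the factor that packs and transcribes mitochondrial DNA, 0.237 and 0.221. Tfam thus lay on the other side from Ppargc1a, whose protein is known to raise it.

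Among known PPAR targets, 2 of 5 measured genes were apart and higher and 1 lower. Creb3l3, a membrane-bound transcription factor of lipid metabolism, held 596 and 638 CPM in mature enterocyte-like cells against 14.2 and 13.0 CPM in stem-like cells, and Vnn1, a pantetheinase, had ratios of 5.18 and 11.1. Ucp2, a mitochondrial carrier, had 1.18 and 1.96. Acot1, an acyl-CoA thioesterase, was lower, at 0.141 and 0.230, and since it has near-identical relatives in the genome its count is uncertain.

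Outside the absorptive series, Cpt1a, Cpt2, Acadl, Acadm and Hadha were lower in Paneth-like cells than in any other epithelial class of either library. Cpt1a stood there at 56.2 and 61.7 CPM in library 2 and library 1, Hadha at 122 and 145 CPM and Acadm at 51.9 and 52.1 CPM, against the stem-like values given above. Paneth-like cells spend much of their RNA on antimicrobial products. All alpha-defensins, the marker genes of every class and the check genes kept out of the class lists, Lyz1 and Olfm4 among them, were summed. Together they made up 63.4% and 60.7% of the UMIs of Paneth-like cells, against 2.77% and 2.42% in stem-like cells. With those genes taken out of the totals, Paneth-like over stem-like cells, Hadha had ratios of 0.930 and 0.875, Cpt1a 0.777 and 0.678, and Cpt2 1.58 and 1.29.

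Lymphocyte-marker cells had Acadl at 250.5 and 182 CPM, above the stem-like class in both libraries. The same cells held Ppargc1a at 3.14 and 3.77 CPM and Cpt2 at 30.4 and 15.1 CPM, below it. Ppara was caught in them 5 times in library 2 and not at all in library 1, where a count of 0 allows up to 3.77 CPM. Enteroendocrine-like cells had Cpt2 at 119.5 and 121 CPM, above the stem-like level, and Acadm at 82.9 and 127 CPM, below it. Tuft-like cells had Cpt1a at 238 and 251 CPM, values between those of stem-like and early absorptive-like cells. Against early absorptive-like cells the interval of the ratio included 1 in both libraries. Tuft-like over stem-like cells, the ratio was 1.24 (1.04 to 1.46) in library 2 and 1.11 (0.927 to 1.33) in library 1.

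The stem-like class was looked at more closely. To compare shares of cells at 1 depth, each cell was thinned to 2000 UMIs, which kept 487 stem-like cells of library 2 and 638 of library 1 and left out 66 and 158. Hadha was then seen in 44.4% of stem-like cells of library 2 (exact binomial interval 39.9 to 48.9) and 55.5% of those of library 1 (51.5 to 59.4), and Cpt1a in 31.2% (27.1 to 35.5) and 34.5% (30.8 to 38.3). In lymphocyte-marker cells thinned alike the shares were 35.8% and 30.0% for Hadha, which those cells may also express. Ppargc1a was seen in 4.31% and 4.23% of stem-like cells and in 1 of 193 and 1 of 207 lymphocyte-marker cells, set beside them as a background. Without thinning, stem-like shares were 85.9% and 81.5% for Hadha, 72.7% and 70.6% for Cpt1a, and 17.0% and 13.9% for Ppargc1a, at median depths of 11916 and 10644 UMIs, against 3232 and 2443 UMIs in lymphocyte-marker cells. Pdk4 was seen in 2 and 4 of the thinned stem-like cells, too few to set against any other class.

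Cells of the stem-like class that also passed the cycling minimum, 258 in library 2 and 390 in library 1, were set against those that did not, 295 and 406. For Cpt2, Acadl, Hadha, Pdk4 and Ppara the interval of the ratio included 1 in both libraries. Hadha stood at 357 CPM in cycling and 342 CPM in not cycling stem-like cells of library 2, and at 411.7 and 411.5 CPM in library 1. Cpt1a had ratios of cycling to not cycling cells of 1.01 (0.908 to 1.13) in library 2 and 1.13 (1.04 to 1.24) in library 1, and Acadl 0.976 and 0.973 with both intervals including 1. Acadm had ratios of 0.812 (0.719 to 0.917) and 0.894 (0.806 to 0.991), with the interval below 1 in both libraries, as had 5.34% of the 7739 genes measured. Ppargc1a had 0.595 (0.407 to 0.866) in library 2 and 0.883 (0.632 to 1.23) in library 1, where the interval of library 1 includes 1. Lgr5, which was used to choose the cells, had 0.776 and 0.609, and Olfm4, which was not, 0.842 and 0.799. Cycling cells were the deeper ones, with medians of 14739 and 12670.5 UMIs, against 10549 and 9660.5 UMIs in those not cycling, and the part of depth in these ratios was not tested.

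**Figure D3:**
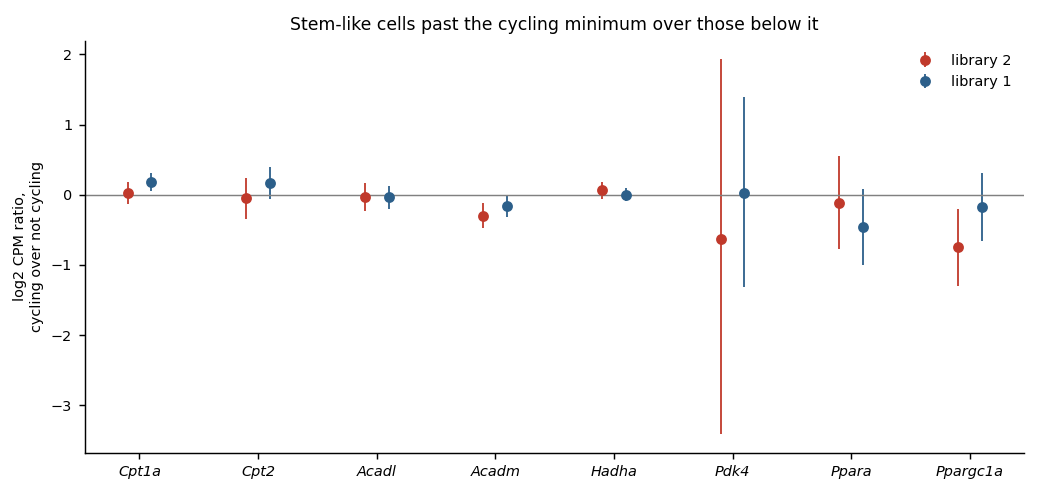
Log2 ratio of level in cycling over not cycling stem-like cells for the 8 genes, with library 2 in red and library 1 in blue and bars for the 95% counting interval. Acadm lies below 0 in both libraries with intervals that exclude it, and Pdk4 has intervals too wide to read.

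Library 2 was then set against library 1 within each class. A gene was called apart when its ratio was at least 1.5 either way with an interval excluding 1 and at least 100 UMIs. In stem-like cells 7 of the 8 genes were measured and none was apart, beside 2.83% of the 9464 genes measured in that class. Among stem-like cells with an Lgr5 UMI, Ppara alone of the 8 was apart, at 0.595 (0.392 to 0.888). In that setting 175 genes in all were apart and higher in library 2 and 78 lower. Ppara was not apart under any other processing choice listed below. Its ratio was 0.602 (0.332 to 1.05) with doubled class minimums and 0.998 (0.793 to 1.25) with halved ones. Over all stem-like cells, the 7 measured genes had a median log2 ratio of -0.16, against 0.0037 for all genes. Hadha stood at 350.3 CPM in library 2 against 412 CPM in library 1, a ratio of 0.851 (0.808 to 0.896), and Cpt1a at 192 against 226 CPM, a ratio of 0.853 (0.796 to 0.915). Cpt2 had a ratio of 0.874 (0.769 to 0.991), Acadl 0.966 (0.883 to 1.06), Acadm 0.969 (0.895 to 1.05), Ppara 0.897 (0.669 to 1.20) and Ppargc1a 1.10 (0.857 to 1.40). The intervals of Hadha, Cpt1a and Cpt2 lay below 1, as did those of 8.82% of all genes, but each shift was small, and with 1 library each it cannot be set against the spread between animals. Under the other processing choices only Hadha kept its interval below 1 throughout. With cells thinned to 2000 UMIs, Cpt1a had 0.911 (0.752 to 1.10) and Cpt2 1.02 (0.710 to 1.47). Cpt2 also had 0.946 (0.857 to 1.04) with halved class minimums and 0.911 (0.711 to 1.16) with doubled ones. Hadha's ratio was below 1 in both cycling stem-like cells, at 0.868 (0.809 to 0.930), and those not cycling, at 0.832 (0.770 to 0.898), while Cpt1a had 0.812 (0.739 to 0.892) and 0.908 (0.818 to 1.01).

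Over the wider list, 58 genes were measured in stem-like cells. Vnn1 was apart and higher in library 2, at 2.02 (1.43 to 2.88), and the other 57 were not apart, beside the 2.83% of all genes. Ratios were above 1 for 18 genes and below 1 for 40, where 49.0% of all 9464 genes were below 1, with a median log2 ratio of -0.05 over 66 genes, against 0.0077 for all genes at the same minimum.

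**Figure D4:**
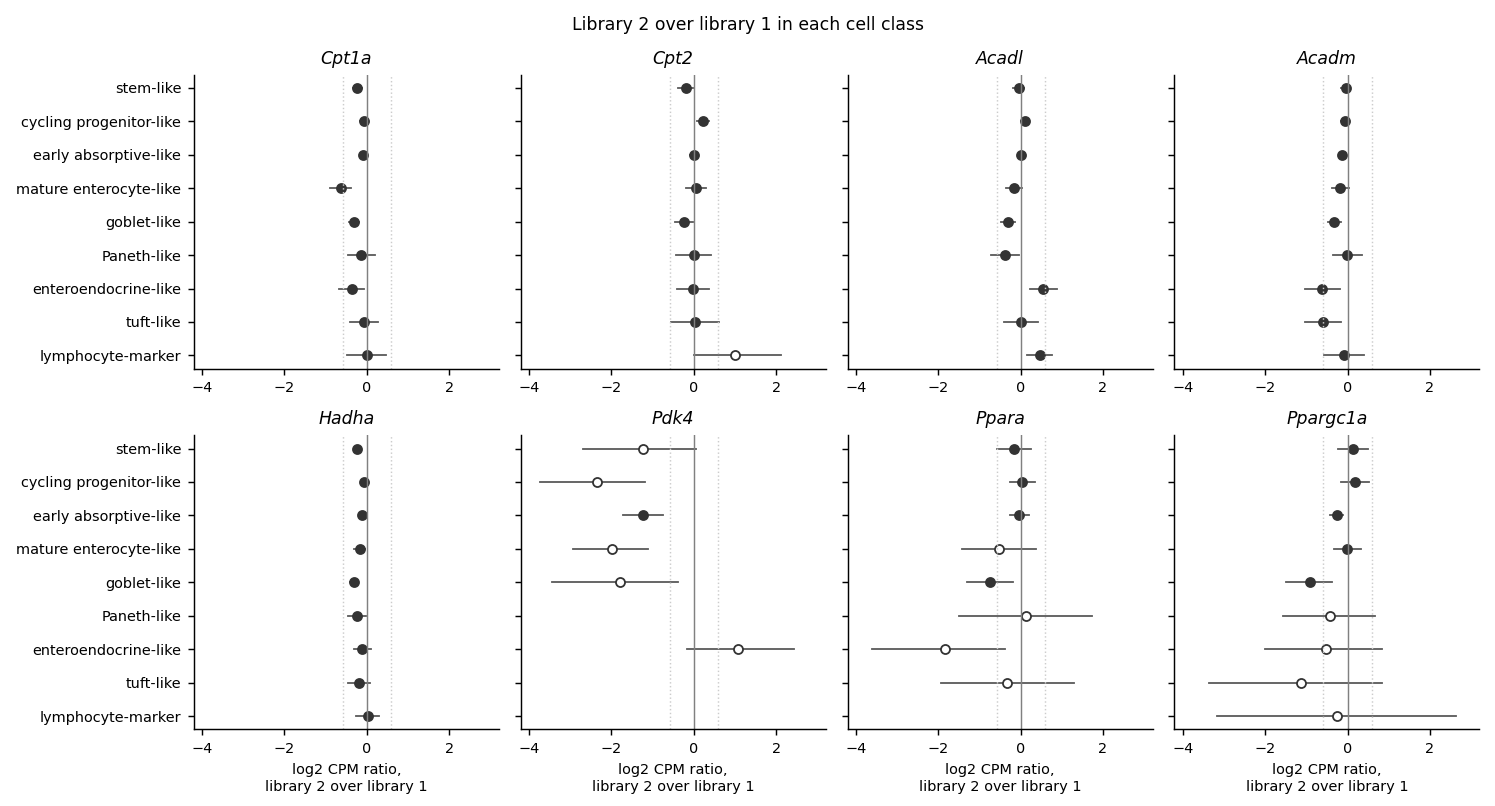
Log2 ratio of library 2 over library 1 for each of the 8 genes (panels) in each class, with bars for the 95% counting interval and dotted lines at a 1.5-fold ratio. Filled points have at least 100 UMIs, open points fewer, and a point is missing where a library had no UMI. Pdk4 lies below 0 in every class drawn except enteroendocrine-like cells.

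Of the 8 genes, Pdk4 had the ratio furthest from 1 over all kept cells. It had 125 UMIs, or 2.69 CPM, in library 2 and 322 UMIs, or 6.66 CPM, in library 1, a ratio of 0.403 (0.326 to 0.498). The 1 class with enough UMIs was the early absorptive-like, where Pdk4 was the only one of 8 genes apart: the ratio was 0.428 (0.303 to 0.601), and 4.41% of the genes measured there were apart. With fewer UMIs, the ratios were 0.426 (0.154 to 1.03) in stem-like, 0.198 (0.0757 to 0.438) in cycling progenitor-like, 0.253 (0.131 to 0.465) in mature enterocyte-like and 0.288 (0.0929 to 0.765) in goblet-like cells. Paneth-like cells held no Pdk4 UMI in library 2, where a count of 0 allows up to 1.16 CPM, and 14 UMIs, or 4.99 CPM, in library 1. Enteroendocrine-like cells ran the other way. Those UMIs came from 8 cells of library 2 and 6 cells of library 1, and the ratio was 2.12 (0.894 to 5.40), whose interval includes 1. In that class the peptide hormone gene Gip also stood apart, at 13150 CPM in library 2 against 1612 CPM in library 1, and its part in the Pdk4 values was not tested.

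Among the other classes the calls were few and all lower in library 2. In mature enterocyte-like cells 1 of 6 measured genes was apart, beside 8.35% of all genes: Cpt1a stood at 155 CPM in library 2 against 239.6 CPM in library 1, a ratio of 0.645 (0.542 to 0.768). Those cells also differed in markers, with medians of 111 mature-marker UMIs per 10000 in library 2 against 86.1 in library 1. Olfm4 stood in them at 335 against 145 CPM, and the part of these differences in the Cpt1a ratio was not tested. In goblet-like cells 2 of 7 were apart, beside 5.50% of all genes: Ppara, at 8.04 against 13.5 CPM, had a ratio of 0.596 (0.404 to 0.875), and Ppargc1a, at 7.55 against 14.3 CPM, a ratio of 0.528 (0.356 to 0.776). With cells thinned to 2000 UMIs the ratio of Ppargc1a turned to 1.13 (0.359 to 3.85). All 7 genes had intervals below 1 in goblet-like cells, the other 5 with ratios between 0.801 and 0.851, beside 15.7% of all genes with such an interval and 47.3% with a ratio below 1. Of 10 other processing choices, the ratio of Acadm in goblet-like cells was below 1 in 9 and was 1.03 at its highest. The libraries' goblet-like cells also differed in other markers: Olfm4 stood at 437 CPM in library 2 against 743 CPM in library 1, and cells held a median of 5.34 against 8.43 cycling-marker UMIs per 10000. Their part in the ratios was not tested. Goblet markers themselves took 7.70% of the UMIs of that class in library 2 and 5.95% in library 1. With the UMIs of marker and check genes taken out of the totals the ratios were 0.610 for Ppara and 0.540 for Ppargc1a.

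Acadm was apart in the 2 rarest epithelial classes. It had a ratio of 0.655 (0.488 to 0.874) in enteroendocrine-like cells, 1 of 5 measured genes, which turned to 1.05 (0.433 to 2.58) with thinned cells, and 0.665 (0.493 to 0.896) in tuft-like cells, 1 of 5 as well. In these small classes 20.7% and 18.2% of all measured genes were apart, so a single call is no more than the background. The tuft-like cells also differed in depth, with a median of 4091.5 UMIs in library 2 and 9215.5 UMIs in library 1. Their tuft markers had medians of 93.4 and 29.3 UMIs per 10000 and their cycling markers 4.02 and 8.62. The part of these differences in the Acadm ratio was not tested. Ppara, with too few UMIs to be counted, had 5 UMIs in enteroendocrine-like cells of library 2 against 20 in those of library 1, a ratio of 0.281 (0.0824 to 0.771). No gene was apart among 7 measured in cycling progenitor-like cells, 5 in Paneth-like cells and 4 in lymphocyte-marker cells, where 3.54%, 12.8% and 11.2% of all genes were. The highest ratios of library 2 over library 1 in a measured gene were those of Acadl, at 1.46 (1.16 to 1.83) in enteroendocrine-like cells and 1.37 (1.11 to 1.70) in lymphocyte-marker cells.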

How the data were processed

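Crypt cells of ES and NT mice were pooled per group, 1 library each. The authors deposited raw UMI counts per gene and barcode as 1 matrix of both libraries, and per the file headers the values are integers. The submitters' processing notes name Cell Ranger 2.1.1 and the build mm10. The labels name a 3' droplet kit whose barcodes are shorter than those listed, so the capture chemistry is not settled here. Barcode suffixes were taken as libraries.

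The 8 genes, marker lists, class minimums and pathway list were chosen with earlier results of these data known. From the deposited counts, UMIs were summed per class and library and divided by the class total (CPM). Each cell's marker UMIs per 10000 were divided by the class minimum, and the highest ratio set its class. A cell past the stem and cycling minimums was stem-like. Counts of the few features that shared a symbol were merged. Ratios have exact conditional (binomial) 95% intervals of 2 Poisson counts, levels exact Poisson intervals and shares Clopper-Pearson intervals, and a count of 0 allows up to 3 counts. All cover counting error only. Scripts ran in Python 3.11.15 (numpy 2.4.6, scipy 1.17.1, pandas 2.3.3) and were tested on simulated data.

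Pathway genes were named as the up to 2 highest and 2 lowest per role by mature over stem-like ratio among genes with at least 100 UMIs. Acacb and Rxrb fall outside it and were added after their values were seen. Likeness was Pearson's r of log2(CPM + 1) over classes and libraries, with the 3 closest of the genes with at least 500 UMIs named. Coordinates are from GENCODE M21, which holds 99.5% of the feature identifiers. Some genes of the planned list are not reported here and were left out of its counts and medians. Alternatives were other cell filters, class minimums and UMI minimums, thinning, totals without mitochondrial UMIs, and, as the last 2, totals without the UMIs of marker and check genes and median-centred ratios. Those 2 were added after seeing the data.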

Additional observations from a re-analysis of the deposited data

How the results depend on the processing

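With 1 library a group no replicate could be left out. No paired analysis was possible because each group is 1 library. In stem-like cells, 190 genes were higher and 78 lower in library 2. Higher genes numbered 117 with doubled class minimums, 79 with cells thinned to 2000 UMIs, 345 at a minimum of 20 UMIs and 58 at a ratio of at least 2, and lower genes 169 at 20 UMIs and 21 at a ratio of 2. Between mature enterocyte-like and stem-like cells, 1325 genes were higher and 3606 lower. These came to 387 and 796 after thinning, to 2268 and 2180 with median-centred ratios, an alternative chosen after seeing the data, and to 2287 lower with doubled minimums. The 5 genes higher in mature enterocyte-like cells came to 3 with no cell filter, 3 after thinning and 6 with median-centred ratios. The pathway's median log2 ratio there, 0.60, came to 0.22 with no cell filter and 1.18 when median-centred. Of the ratios of library 2 over library 1 called apart, 2 turned above 1 after thinning: Ppargc1a in goblet-like cells, 1.13, and Acadm in enteroendocrine-like cells, 1.05. Of 10 alternatives, Pdk4 stayed apart in early absorptive-like cells in 8 (0.335 to 0.464), Cpt1a in mature enterocyte-like cells in 7 (0.586 to 0.745), Ppara in goblet-like cells in 8, Ppargc1a there in 7, and Acadm in 4 in enteroendocrine-like and 2 in tuft-like cells. The cause of these shifts was not tested.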
